A study of Canis lupus familiaris with 16 samples.

Results

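The genes described here encode the receptors for serotonin, dopamine, adrenaline, acetylcholine (muscarinic), histamine, opioids and a set of neuropeptides, together with those for endocannabinoids, prostaglandin E, adenosine and melatonin. They were chosen by gene symbol. The rule matched 80 receptor symbols in the RefSeq gene table, of which 69 had at least 1 methylation peak in the deposited peak lists. These 69 receptors stand among 11383 named protein-coding genes whose transcription start could be recovered. They comprise 33 amine receptors, 3 opioid receptors, 24 peptide receptors and 9 receptors for lipids, nucleosides or melatonin. The remaining 11, among them CNR2, DRD4 and HRH4, had no assigned peak, so their starts could not be placed.

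Methylated DNA was captured and sequenced (MethylCap-seq) from dogs of mixed and several pure breeds. The lymphoma group was 5 dogs aged 5 to 13 years (median 10) with high-grade B-cell lymphoma, whose tumour cells were aspirated by needle from enlarged lymph nodes. The healthy group was 3 dogs aged 2 to 7 years (median 5), from whose blood the mononuclear cells were isolated. Each dog gave an L and an M-H library, 16 libraries in total, and the authors deposited 1 pooled peak list per group and fraction (no source used here says what L and M-H mean). Disease, tissue of origin and age differ together between the groups and cannot be told apart. Within a pooled list, methylation in fewer cells and weaker methylation in every cell cannot be told apart either. With 1 list per group there was no spread between dogs and no test, so each difference below is a description of these lists.

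Nearly all of these receptors belong to the G protein-coupled family, which spans the cell membrane and passes the arrival of a ligand to G proteins inside the cell; HTR3A and HTR3B, subunits of a serotonin-gated ion channel, are the exceptions. Depending on the receptor, the G protein raises cyclic AMP, lowers it or releases calcium. The receptors are best known from neurons, yet lymphocytes and monocytes also use several of them, among them the receptors for adenosine, prostaglandin E, histamine and vasoactive intestinal peptide. Methylation of cytosines around a transcription start is often found at silent genes, whereas methylation within gene bodies is common at active and silent genes alike. Expression was not analysed here.

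At promoters, taken as 1 kb either side of the start, the receptors carried many more peaks in the lymphoma lists than in the healthy lists. In L, 23 of the 69 receptors (33.3%) had a promoter peak in the lymphoma list and none in the healthy list, while 17.0% of all genes did. Just 1 receptor was healthy-only in L, where the share over all genes was 3.23%, and 18 (26.1%) had a peak in both groups, against 13.4% of all genes. In M-H, 24 receptors (34.8%) were lymphoma-only, against 20.3% of all genes, 1 was healthy-only, against 0.580%, and 14 (20.3%) had a peak in both groups, against 7.92%. Within 1 kb of their starts, the receptors thus held peaks more often than other genes in lists of both groups, and not solely in the lymphoma lists. Counted over all 80 receptor symbols, the lymphoma-only shares were 28.8% in L and 30.0% in M-H, against 11.1% and 13.3% of the 17395 named protein-coding genes of the table.

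The contrast was sharper at the start itself. A peak that covered the transcription start was present in the lymphoma list alone for 20 receptors in L (29.0%) and 22 in M-H (31.9%), where 10.3% and 12.4% of all genes had one. In the healthy list alone, the start was covered for 2 receptors in L, CHRM5 and MC1R, and for 0 in M-H, where the shares over all genes were 0.791% and 0.184%. Peaks of both groups covered it for 3 receptors in L (4.35%) and 2 in M-H (2.9%), near the 3.79% and 2.82% of all genes. Some of these calls turned on a few bases. In L, the healthy peaks of ADRA1B and HCRTR2 began 7 and 14 bp past the start. The lymphoma L peak of CHRM5 ended at -5 bp relative to the start, and the lymphoma M-H peak of ADRA2B began at -2 bp. In gene bodies the groups were even in L. There, 5 receptors had gene-body peaks in lymphoma only and 5 in healthy only, against 10.1% and 11.1% of all genes, and 27 (39.1%) had them in both groups, against 51.4%. In M-H, 15 receptors (21.7%) had gene-body peaks in lymphoma only, against 15.6% of all genes. HCRTR1 alone was healthy-only there, where the share over all genes was 2.21%, and 20 receptors (29.0%) had gene-body peaks in both groups, against 33.0%. The lymphoma M-H list was the longer, with 34939 peaks against 19867. With that list cut to equal length by fold enrichment, 6 receptors were lymphoma-only in gene bodies and 6 healthy-only (8.7% each). Over all genes these shares were 6.05% and 8.39%, so the M-H excess of lymphoma-only gene bodies depended on list length.

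**Figure D1:**
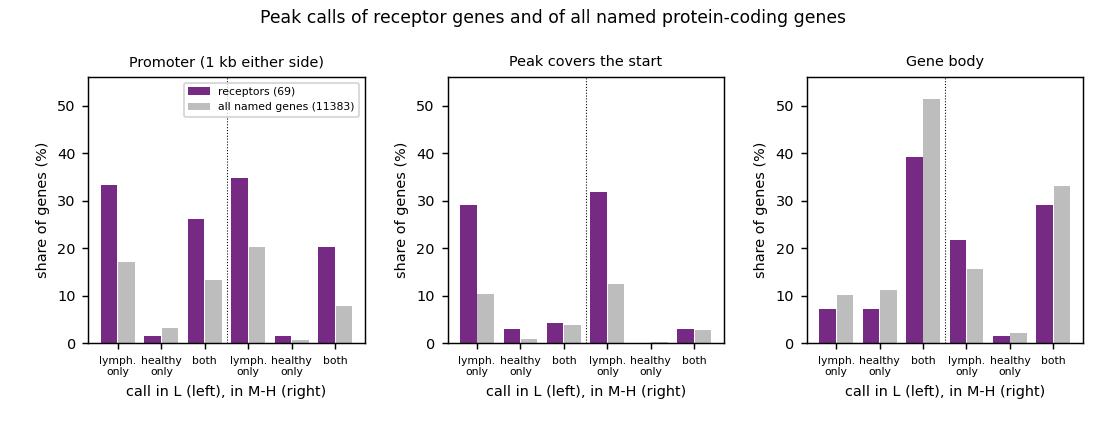
Share of the 69 receptors (purple) and of all 11383 named protein-coding genes (grey), in percent, with a peak in the lymphoma list only, the healthy list only or both, for promoters, for peaks covering the start and for gene bodies, in L and M-H. For lymphoma-only promoters the receptor bars stand at 33.3% and 34.8% and the bars of all genes at 17.0% and 20.3%, whereas for gene bodies present in both groups the receptor bars are the lower ones.

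In each list the enrichment of a peak is the authors' fold enrichment, that is, how far reads at the peak exceed their background. No deposited value is below 6, so a locus without a peak can still hold weaker methylation. Fold enrichment ranks peaks within a list and is not compared between lists. A total of 15 receptors (21.7%) were lymphoma-only at the promoter in both fractions, against 11.6% of all genes. They were the amine receptors ADRB3, CHRM3, DRD2, HRH2, HTR1B, HTR1F and HTR2C, the opioid receptors OPRD1 and OPRM1, and the peptide receptors NPY1R, TACR1 and VIPR2. CNR1, MTNR1A and PTGER2 completed the group.

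Among serotonin receptors, HTR1B and HTR1F belong to the class that lowers cyclic AMP and is the target of the triptan migraine drugs. The HTR1B promoter peak had a fold enrichment of 14.9 in lymphoma L and 18.2 in lymphoma M-H, with no peak in either healthy list. It lay on chromosome 12 from 38659089 to 38659903 in L (CanFam3.1, 1-based, as all positions here) and covered the start. The gene columns of this L promoter peak were shifted in the deposited list, so its assignment to HTR1B rests on position alone. The M-H peak was the highest receptor promoter of its list. A further HTR1B peak of 13.5, inside a stretch the authors marked as an enhancer, began at -5635 bp in lymphoma L alone. The HTR1F peak (chromosome 31, 427256 to 428314 in L) had 11.7 in lymphoma L and 15.9 in lymphoma M-H and also covered the start. HTR2C, a calcium-mobilising receptor known for its part in appetite, had 7.33 in lymphoma L and 9.40 in lymphoma M-H inside an X-chromosomal CpG island.

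Other serotonin receptors were methylated near the start in both groups. HTR1D, another triptan target, had promoter peaks of 15.5 and 16.5 in the lymphoma L and M-H lists and of 10.2 and 9.20 in the healthy L and M-H lists. All of these HTR1D peaks began more than 500 bp downstream of the start, in the coding sequence. HTR7, which raises cyclic AMP, had 16.9 in lymphoma L, 17.9 in lymphoma M-H and 11.0 in healthy L, with no promoter peak in healthy M-H. HTR5A had 7.53 and 7.92 in the lymphoma lists and 7.72 and 7.73 in the healthy lists, so its start was covered in every list. HTR1A, the best known inhibitory serotonin receptor of the brain, went the other way. Its single peak (chromosome 2, 50005244 to 50006484, fold enrichment 6.92, in a CpG island) was in the healthy L list, and the nearest lymphoma L peak lay 47763 bp from its start.

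The dopamine receptor DRD2, which lowers cyclic AMP and is the main target of antipsychotic drugs, had promoter peaks of 13.2 and 6.15 in lymphoma L and 1 of 16.2 in lymphoma M-H. No healthy peak overlapped them. The stronger L peak began 23 bp downstream of the start (chromosome 5, 19732866 to 19733690), and the M-H peak covered it. DRD1, which raises cyclic AMP, had 8.75 in lymphoma M-H alone. DRD5, of the same class, had promoter peaks in all lists, with 6.28 and 7.51 in the lymphoma lists and 6.32 and 7.89 in the healthy lists.

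Among adrenergic receptors, ADRB3, best known from fat cells, had 6.55 in lymphoma L and 8.40 in lymphoma M-H over a long peak across its start. A healthy L peak of 10.7 began 1175 bp downstream and overlapped the far end of the lymphoma L peak, so the lymphoma-only call rested on the part nearer the start. ADRB1, the main receptor of the heart, had 9.21 in lymphoma L, 11.7 in lymphoma M-H and 6.49 in healthy L. ADRA1B, which releases calcium in smooth muscle, had 13.5 and 16.3 in the lymphoma L and M-H lists and 8.96 and 9.78 in the healthy lists. ADRA1D, of the same class, had the highest receptor promoter of the healthy M-H list, 12.9, which exceeded 92.3% of that list, beside 9.63 and 10.9 in the lymphoma lists and 7.03 in healthy L.

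The muscarinic receptor CHRM3, which drives secretion and smooth muscle contraction, had a layout similar to that of ADRB3. Its lymphoma peaks had 9.02 in L and 9.79 in M-H, and healthy peaks of 10.7 in L and 6.29 in M-H overlapped them but began 1019 and 1233 bp from the start, just outside the window. CHRM5 was marked in the L lists of both groups, with 8.86 in lymphoma and 11.9 in healthy, and it was the healthy peak that reached across the start. CHRM2, the heart's muscarinic receptor, had a promoter peak of 7.26 in lymphoma M-H that the authors assigned to an uncharacterised neighbouring locus. The histamine receptor HRH2, which raises cyclic AMP and controls gastric acid, had 11.2 in lymphoma L and 13.1 in lymphoma M-H across its start and no healthy promoter peak.

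Both opioid receptors with promoter peaks were lymphoma-only in both fractions. OPRM1, the mu receptor through which morphine acts, had the highest receptor promoter of the lymphoma L list. Its fold enrichment was 17.7 in lymphoma L, above 96.3% of that list, and 13.2 in lymphoma M-H. The L peak covered the start (chromosome 1, 43972595 to 43973389), and OPRM1 had no peak of any kind in the healthy lists. The nearest healthy peaks lay 165517 bp away in L and 181804 bp away in M-H. OPRD1, the delta receptor, had 11.1 in lymphoma L and 14.3 in lymphoma M-H across its start (chromosome 2, 71721053 to 71722274 in L). OPRD1 differed from OPRM1 further downstream, where a coding peak was shared by all lists, with 15.7 and 18.3 in the lymphoma L and M-H lists and 11.1 and 9.38 in the healthy lists. OPRK1, the kappa receptor, had no promoter peak, but a peak that began 1491 bp downstream of the start in lymphoma L, in an untranslated region, had 9.18 in lymphoma L, 9.63 in lymphoma M-H and 6.54 in healthy L.

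Among the 24 peptide receptors, 10 were lymphoma-only at the promoter in L (41.7%, against 17.0% of all genes) and 6 in M-H (25.0%, against 20.3%). A further 9 in L (37.5%, against 13.4% of all genes) and 7 in M-H (29.2%, against 7.92%) had a promoter peak in both groups. NPY1R, a neuropeptide Y receptor that lowers cyclic AMP, had 9.47 in lymphoma L and 10.0 in lymphoma M-H across its start, and no healthy promoter peak. At the promoter, the other neuropeptide Y receptors were marked in lymphoma L alone, at 6.16 for NPY2R and 6.86 for NPY5R, near the lower limit of the list. A healthy L peak of 8.996 lay 2108 bp upstream of the NPY2R start, outside the window. VIPR2, a receptor for vasoactive intestinal peptide, had 11.1 in lymphoma L and 15.1 in lymphoma M-H inside a CpG island over its start (chromosome 16, 20986888 to 20988093 in L) and no peak in a healthy list. Its relative VIPR1, present on many lymphocytes, had 11.6 in lymphoma L, 15.6 in lymphoma M-H and 11.0 in healthy L. VIPR1 was thereby in both groups in L and lymphoma-only in M-H.

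TACR1, the substance P receptor, had 7.92 in lymphoma L and 7.90 in lymphoma M-H at a locus marked as a CpG island. These peaks ended at -455 and -442 bp relative to the start. TACR3, the neurokinin B receptor, ranked higher, with 14.9 in lymphoma L and 16.4 in lymphoma M-H, and a peak of 6.13 in healthy L overlapped it. HCRTR2, an orexin receptor whose inherited loss causes narcolepsy in dogs, had 17.7 in lymphoma L, 17.8 in lymphoma M-H and 6.95 in healthy L. The HCRTR2 peaks of the lymphoma lists covered the start, and the healthy peak began 14 bp past it.

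Melanocortin receptors varied in where they were marked. MC4R, a hypothalamic receptor that restrains appetite, had peaks over its start in all lists, with 11.4 and 13.2 in the lymphoma L and M-H lists and 10.6 and 6.47 in the healthy lists. MC1R, the pigment cell receptor that sets coat colour, had 7.78 in lymphoma L, 7.93 in healthy L and 9.27 in healthy M-H. MC1R (chromosome 5, 63694503 to 63694920 in healthy M-H) was the healthy-only receptor of the M-H lists, although the same locus was marked in lymphoma L. NTSR2, a neurotensin receptor, had 11.3 in each lymphoma list, 10.3 in healthy L and 7.91 in healthy M-H. NMUR2, a neuromedin U receptor, had the highest receptor promoter of the healthy L list, 12.7, beside 10.6 in lymphoma L and no promoter peak in either M-H list.

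CNR1, the cannabinoid receptor of the brain, had 10.9 in lymphoma L and 18.1 in lymphoma M-H across its start, and the nearest healthy L peak, of 6.79, lay 1730 bp upstream. MTNR1A, a melatonin receptor, had 9.13 in lymphoma L and 10.1 in lymphoma M-H over its start and no peak in a healthy list. PTGER2, a prostaglandin E receptor that raises cyclic AMP in immune cells, had 12.2 in lymphoma L and 8.52 in lymphoma M-H in a CpG island within its coding sequence. ADORA2A, the adenosine receptor that restrains lymphocytes, was marked at its start in L in both groups, with 9.74 in lymphoma and 8.04 in healthy, and in neither M-H list.

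**Figure D2:**
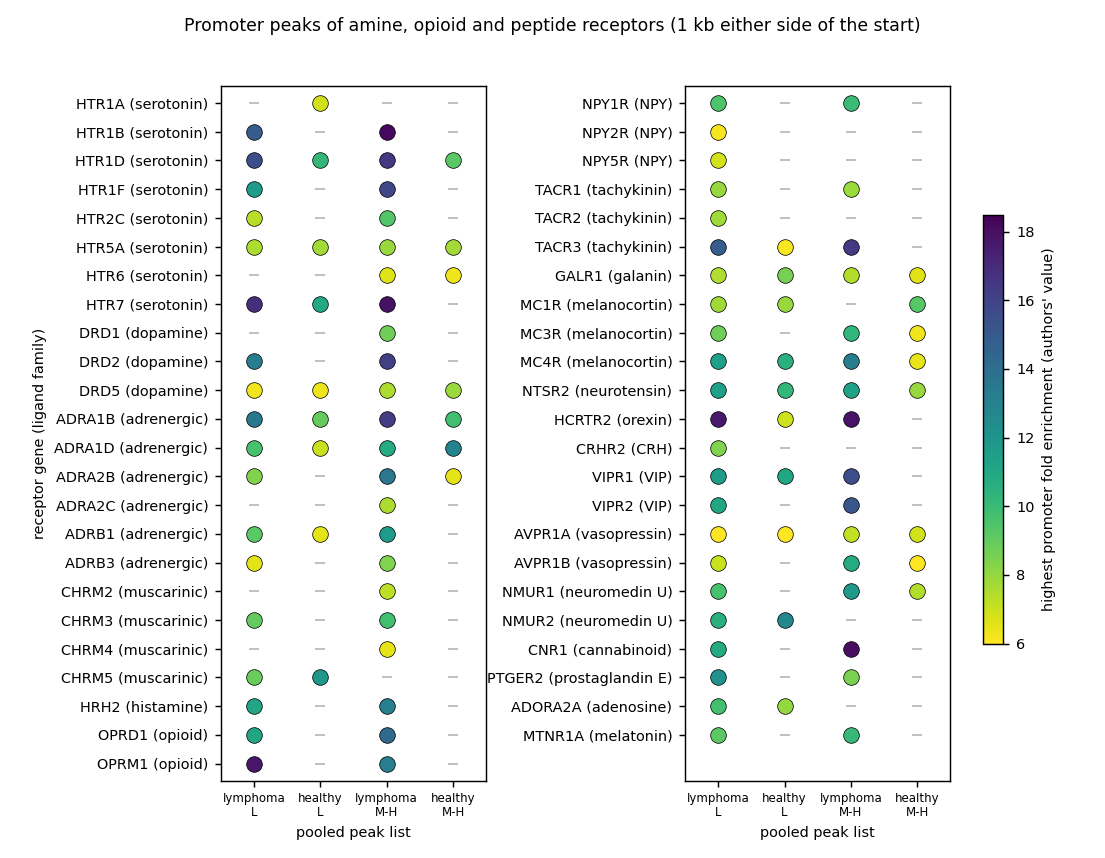
Highest promoter fold enrichment (the authors' value, colour scale) of each of the 47 receptors with a promoter peak, in the lymphoma and healthy lists of L and M-H; a grey dash means no peak in the list. Most receptors have filled points in the lymphoma columns, the darkest being OPRM1 (17.7) in lymphoma L and HTR1B (18.2) in lymphoma M-H, while HTR1A is filled in healthy L alone.

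Where both groups had a promoter peak, the group whose peak covered the start was compared. In L the lymphoma peak alone covered the start for 7 of 18 such receptors (38.9%), namely ADRA1B, ADRB1, AVPR1A, DRD5, GALR1, HCRTR2 and NTSR2, whereas 16.8% of 1523 such genes overall showed this. The healthy peak alone covered it for 2 receptors (11.1%, against 1.58%). Both peaks covered it for 3 receptors (16.7%, against 28.3%) and neither for 6, against 812 of 1523 genes. In M-H the lymphoma peak alone covered the start for 7 of 14 receptors (50.0%), against 19.7% of 902 genes. ADRA2B and HTR6 stood there in place of ADRB1 and HCRTR2. The healthy peak alone covered the start for 0 receptors, against 0.554% of genes. Both peaks covered it for 2 receptors (14.3%, against 35.6%) and neither for 5, against 398 of 902 genes. GALR1, a galanin receptor, is an example of a start covered in lymphoma alone. Its lymphoma L peak ran from -354 to 1480 bp relative to the start, whereas its healthy L peak ran from 480 to 1650 bp. AVPR1A, the vascular vasopressin receptor, had a lymphoma L peak from -1254 to 1265 bp and a healthy L peak from 36 to 1290 bp. For ADRA1B, HCRTR2 and ADRB1 the healthy L peaks began just 7, 14 and 26 bp past the start. For NTSR2 and DRD5 they began 268 and 431 bp past it. Lymphoma peaks were also longer over the whole lists. The median was 653 bp in lymphoma L against 508 bp in healthy L. In M-H it was 730 bp in lymphoma against 571 bp in healthy. Over receptor promoter peaks this held in M-H alone, with 983.5 bp in lymphoma against 685 bp in healthy. In L their median was 824.5 bp in lymphoma against 867 bp in healthy. The part of peak length in the covered starts was not tested.

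**Figure D3:**
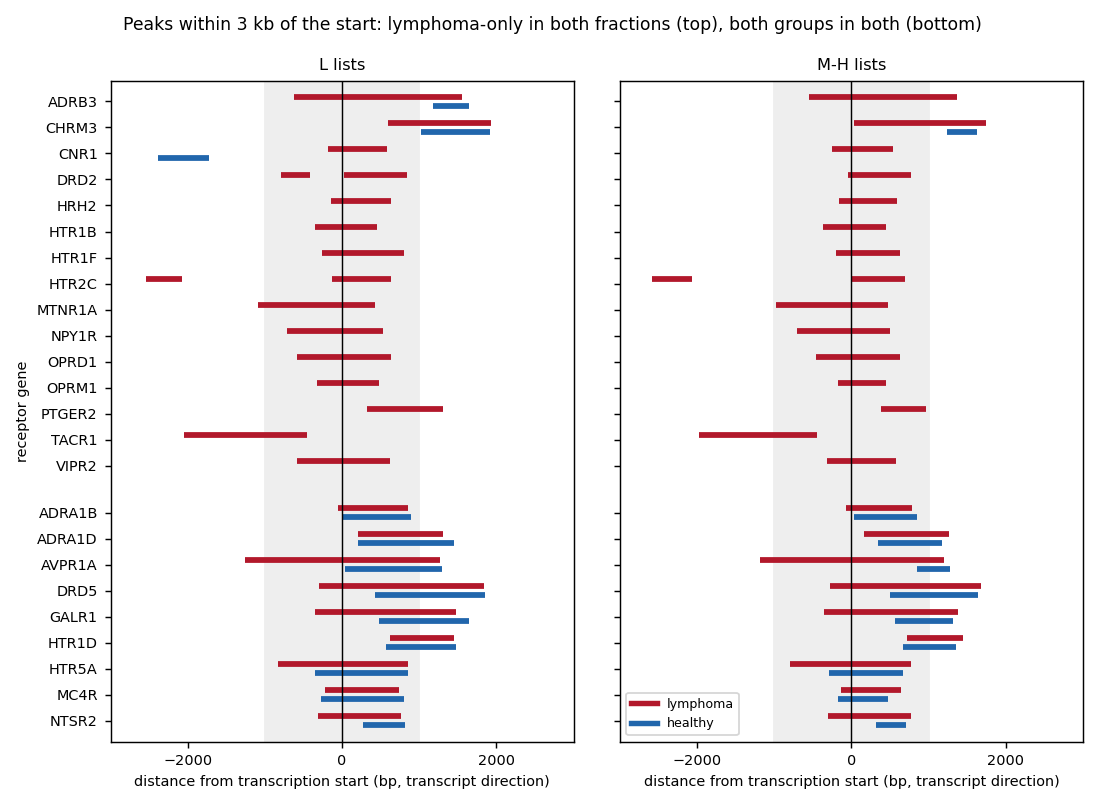
Extent of every peak within 3 kb of the transcription start, in bp along the transcript, in lymphoma (red, upper bar of each pair) and healthy (blue, lower bar) for L and M-H; grey marks the promoter window. The top 15 receptors are lymphoma-only in both fractions and show blue bars only outside the window (ADRB3, CHRM3 and CNR1), and the bottom 9 have peaks in both groups, with red bars that reach upstream of the start for GALR1, AVPR1A and DRD5 where the blue bars begin downstream.

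The promoter calls of the 15 receptors did not all rest on an equally wide gap. The nearest healthy peak lay beyond 5 kb for 18 of the 23 lymphoma-only receptors in L and for 22 of the 24 in M-H. Its median distance over the lymphoma-only receptors was 11652 bp in L and 65094 bp in M-H. Over all genes, 1502 of 1937 lymphoma-only promoters in L and 2104 of 2306 in M-H had no healthy peak within 5 kb. The receptors did not stand apart in this. With another promoter window, a fold enrichment of at least 8, equal list lengths or absence required over 5 kb, 8 receptors kept the lymphoma-only call in both fractions (DRD2, HRH2, HTR1B, HTR1F, MTNR1A, OPRD1, OPRM1 and VIPR2). The other 7 lost it under at least 1 of these settings in at least 1 fraction. The lymphoma M-H list was longer than the healthy M-H list (34939 against 19867 peaks). With the lymphoma list cut to equal length by fold enrichment, 17 receptors (24.6%) were lymphoma-only in M-H, against 11.6% of all genes, and 6 receptors (8.70%) were healthy-only, against 2.31% of all genes.

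Promoter peaks of the receptors resembled those of other genes in strength. The median fold enrichment over receptor promoter peaks was 9.52 in lymphoma L and 11.1 in lymphoma M-H, beside 9.11 and 10.4 over promoter peaks of all genes. In the healthy lists it was 8.04 in L and 7.43 in M-H, beside 8.04 and 8.16. CpG islands or their shores, as marked by the authors, held 77.3% of receptor promoter peaks in lymphoma L and 89.5% in lymphoma M-H, against 73.7% in healthy L and 93.3% in healthy M-H. Over all genes these shares were 84.4% and 89.0% in the lymphoma lists and 75.8% and 87.8% in the healthy lists.

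Along the gene bodies, many of the same loci were marked in lymphoma and healthy dogs. Overlapping peaks of the lists were merged into 91 gene-body loci, of which 52 were present in both groups, 17 in lymphoma lists only and 22 in healthy lists only. At promoters the 50 merged loci divided differently, with 25 in both groups, 24 in lymphoma lists only and 1 in a healthy list only. Merged loci of all genes divided in much the same way. Of 27024 gene-body loci 51.5% were in both groups, 21.7% in lymphoma lists only and 26.8% in healthy lists only, where the receptors had 57.1%, 18.7% and 24.2%. Of 4622 promoter loci 41.8% were in both groups, 49.2% in lymphoma lists only and 8.98% in healthy lists only, so this contrast between starts and bodies was not particular to the receptors. The strongest intragenic peaks were found in every list. An intronic peak of HTR1E, 31775 bp into the gene in lymphoma L, had 21.1 in lymphoma L and 20.8 in lymphoma M-H. In the healthy lists it had 11.4 in L and 14.2 in M-H. In lymphoma L it exceeded 99.4% of the list. An intronic peak of CHRM2 had 16.7 in lymphoma L and 19.2 in lymphoma M-H. It also had 15.0 in healthy L and 17.1 in healthy M-H, which made it the strongest receptor gene-body peak of each healthy list. TACR1 likewise held an intronic peak in every list, with 18.0 and 18.9 in the lymphoma lists and 12.5 and 12.9 in the healthy lists, although its promoter was marked in lymphoma alone. DRD3, a dopamine receptor related to DRD2, had no promoter peak and an intronic peak of 17.8 and 15.0 in the lymphoma lists and 11.3 and 9.27 in the healthy lists.

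HTR1F, CHRM5, CRHR2, DRD2 and CHRM3 had the most gene-body peaks. HTR1F showed the clearest separation of start and body, since its body held 5 peaks in lymphoma L, 5 in lymphoma M-H, 6 in healthy L and 5 in healthy M-H, while its start was marked in the lymphoma lists only. Its peak that began 71112 bp downstream in lymphoma L had 18.4 in lymphoma L and 15.6 in lymphoma M-H. In the healthy lists it had 13.4 in L and 14.1 in M-H. CHRM5 had 5 body peaks in lymphoma L and 6 in healthy L but 1 in lymphoma M-H and 0 in healthy M-H, so its marking belonged to the L fraction. CRHR2, a receptor for urocortins, had 6 body peaks in lymphoma L, 2 in lymphoma M-H, 3 in healthy L and 0 in healthy M-H. DRD2 had 3 in each lymphoma list, against 4 in healthy L and 0 in healthy M-H, at partly different positions. CHRM3 had 2 in lymphoma L and 1 in lymphoma M-H, against 5 in healthy L and 1 in healthy M-H. Of the 91 loci, 21 (23.1%) were in the healthy L list alone, the most frequent pattern, and 3 of the loci of CHRM3 were among them. The share of this pattern over all genes was not counted. Healthy lists of either fraction alone held 24.2% of the receptor loci, against 26.8% of gene-body loci of all genes.

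**Figure D4:**
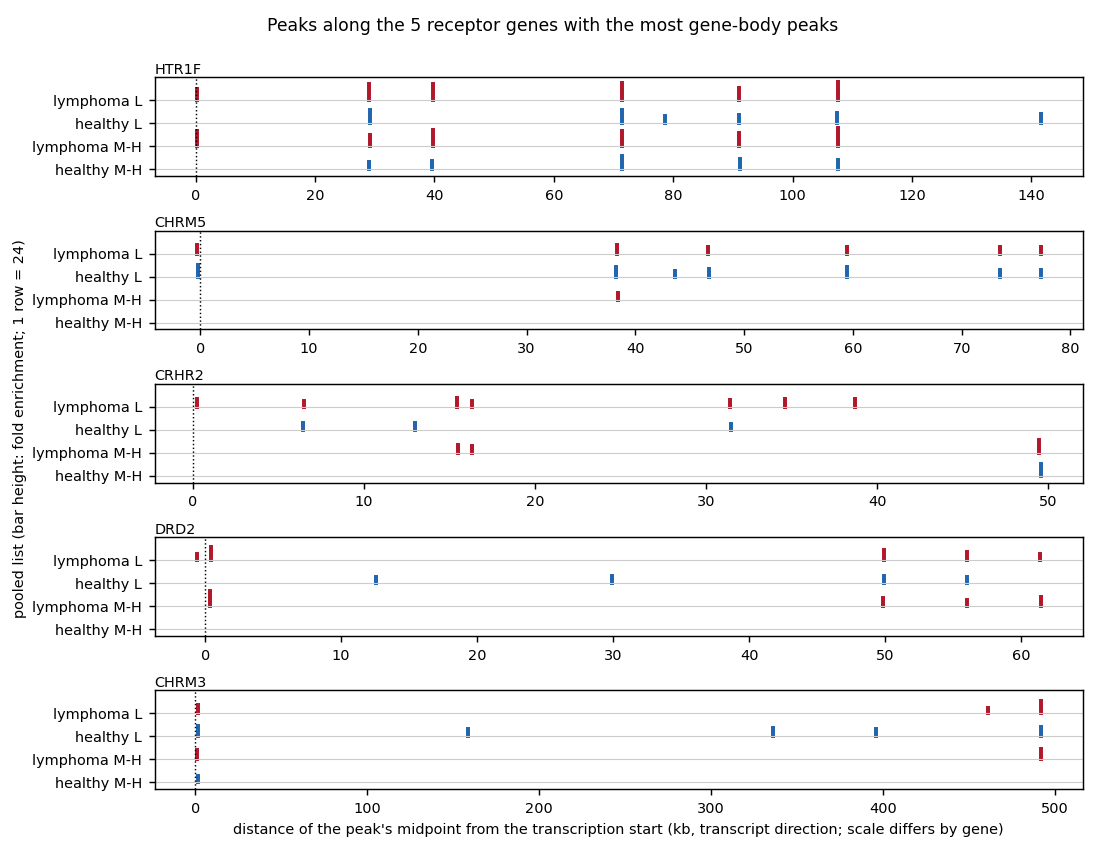
Peaks of the 5 receptors with the most gene-body peaks by distance of the peak midpoint from the start (kb, scale differs by gene), in lymphoma (red) and healthy (blue) lists; bar height is fold enrichment. HTR1F has body peaks in all lists but peaks at its start in the lymphoma lists only, and CHRM5 is marked almost entirely in the L lists.

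Over all their peaks, 7 receptors (GALR3, HTR1B, MTNR1A, OPRM1, PTGER2, TACR2 and VIPR2) appeared in both lymphoma lists and in no healthy list (10.1%, against 6.33% of all genes). With ADORA1, ADRA1A, DRD1 and NPY5R, 11 receptors appeared in at least 1 lymphoma list and no healthy list (15.9%, against 13.3% of all genes). In at least 1 healthy list and no lymphoma list there were 4, HCRTR1, HRH1, HTR1A and MC2R (5.80%, against 10.0% of all genes). Each of these healthy-only receptors rested on 1 peak, with fold enrichments of 7.77 for HCRTR1 in M-H and, in L, 8.996 for HRH1, 6.92 for HTR1A and 9.81 for MC2R, the receptor for corticotropin. Of the receptor peaks, 57.9% in lymphoma L and 43.6% in lymphoma M-H overlapped a healthy peak of the same fraction, against 63.1% and 51.2% of all peaks of those lists. In the other direction, 71.3% of receptor peaks in healthy L and 93.2% in healthy M-H overlapped a lymphoma peak, against 64.8% and 90.4% of all peaks.

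The genes that make, carry and break down the ligands were often lymphoma-only in M-H. Of 48 such genes measured (of 65 listed), 12 had lymphoma-only promoters in L, 3 had healthy-only ones and 8 had peaks in both groups; in M-H these numbers were 22, 0 and 2. As shares, lymphoma-only promoters made up 25.0% in L and 45.8% in M-H, against 17.0% and 20.3% of all genes, and promoters in both groups 16.7% and 4.17%, against 13.4% and 7.92%. In M-H these genes stood below all genes in promoters marked in both groups, where the receptors stood above. The highest lymphoma-only promoters were those of TPH1, which begins serotonin synthesis outside the brain (20.9 in L and 19.4 in M-H), POMC, the precursor of beta-endorphin and the melanocortins (16.4 and 17.0), and HPGD, which degrades prostaglandins (14.8 and 21.8). PNOC, PYY and NT5E were healthy-only in L, with 7.77, 8.15 and 7.87. Among 38 measured genes of G protein signalling (of 46 listed), 7 had lymphoma-only promoters in L, 1 a healthy-only promoter and 4 a peak in both groups; in M-H these numbers were 10, 0 and 6. Their lymphoma-only shares, 18.4% in L and 26.3% in M-H, were near those of all genes in L and somewhat above in M-H, and their shares in both groups were 10.5% and 15.8%. MRAP2, a partner protein of melanocortin receptors, had 11.5 in lymphoma L and 15.2 in lymphoma M-H. PLCB4, a phospholipase activated by calcium-releasing receptors, had 11.8 in lymphoma L and 13.7 in lymphoma M-H. RAMP2 had the highest lymphoma-only promoter of these signalling genes in L, at 12.9, and 8.80 in lymphoma M-H.

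Few promoters of cell type markers carried a peak. Of 8 measured T cell markers (of 12 listed), CD8A and CD8B were lymphoma-only in both fractions and CD5 was healthy-only in L. Of 6 measured monocyte and granulocyte markers (of 10), CD14 and FCGR1A were lymphoma-only in both fractions. Of 7 measured B cell markers (of 10), 0 were lymphoma-only at the promoter in L or in M-H. Of 8 measured stromal and endothelial markers (of 10), 2 were lymphoma-only in L and 3 in M-H. With lists this short, these counts differ by fewer than 2 genes from what the lymphoma-only shares of all genes, 17.0% in L and 20.3% in M-H, would give. Methylation peaks do not identify a cell type as expression would, and the part of cell composition in the receptor results was not tested.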

How the data were processed

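MethylCap-seq peaks were analysed for canine lymphoma cells and healthy blood cells. The submitters' processing notes name BWA, MACS2 and the build CanFam3.1 and give no version or role. Each deposited list gives, per the file headers, peak positions, a fold enrichment (a ratio to background made by the authors), an assigned gene, its distance to the transcription start and CpG island marks. Read depth is unknown because counts, p-values and single-dog values are not in the lists, and how dogs were pooled is not stated.

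Starts were recovered from peak position and distance, giving 1 start for 18111 of 18147 symbols, and 11383 were named protein-coding genes by symbol in RefSeq (UU_Cfam_GSD_1.0, names only). A gene was called by overlap (at least 1 bp) of any peak with its promoter, whatever gene the authors assigned. Gene-body peaks were those assigned to the gene outside the promoter and annotated as intron, coding sequence or untranslated region. In 4, 2, 3 and 0 peaks of lymphoma L, healthy L, lymphoma M-H and healthy M-H the gene columns were shifted, and these were used by position only. Peak starts were converted to 1-based.

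The members and gene lists were chosen with earlier results of these data known. Full values were given for receptors lymphoma-only in both fractions or healthy-only in either, for the 5 highest promoters of each list and for the 5 with most gene-body peaks; further receptors and the cell type markers were named after their values were seen. Other genes were named for the highest lymphoma-only promoters and for healthy-only ones. Promoter, gene-body and overlap steps were tested on simulated data. Python 3.11.15, pandas 2.3.3 and numpy 2.4.6 were used.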

Additional observations from a re-analysis of the deposited data

Results flagged for a closer look

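Some receptor peaks lay outside both promoter and gene body, where no comparison was made. ADRA1B had a peak downstream of its coding end with a fold enrichment of 7.92 in lymphoma L and 7.75 in lymphoma M-H, and none there in the healthy lists. GALR3, a galanin receptor with no promoter or gene-body peak, had a flanking peak of 7.57 in lymphoma L and 8.30 in lymphoma M-H and none in the healthy lists. HTR2C had a second peak that began at -2545 bp relative to its start in L, in a CpG island, of 6.53 in lymphoma L and 9.37 in lymphoma M-H and again none in the healthy lists. GNA14, a G protein subunit that couples receptors to phospholipase, was called in opposite directions at its promoter, with a lymphoma M-H peak of 10.9 and no healthy M-H peak, but a healthy L peak of 9.78 and no lymphoma L peak. These differences were not tested.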

How the results depend on the processing

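The number of lymphoma-only receptor promoters stayed within 1.5 times its value under every setting run, at 18 to 23 in L and 17 to 28 in M-H. Smaller counts moved. With a fold enrichment of at least 8, promoters in both groups numbered 9 in L (18 before) and 3 in M-H (14 before), gene bodies in both groups 17 in L (27 before) and 9 in M-H (20 before), lymphoma-only gene bodies in L 10 (5 before) and healthy-only gene bodies in M-H 0 (1 before), and 27.7% of lymphoma M-H receptor peaks overlapped a healthy peak (43.6% before). With equal list lengths, healthy-only promoters numbered 2 in L and 6 in M-H (1 before in each), both-group promoters in M-H 9, lymphoma-only gene bodies in M-H 6 (15 before) and healthy-only gene bodies in M-H 6; this setting drops lymphoma M-H peaks under a fold enrichment of 9.32. With a 500 bp window, M-H gave 2 healthy-only and 9 both-group promoters. With absence required over 5 kb, M-H gave 0 healthy-only promoters. With every assigned peak outside the promoter counted, 8 receptors were healthy-only in L (5 before). Requiring the peak to cover the start, an alternative chosen after seeing the data, gave 2 healthy-only receptors in L and 0 in M-H; leaving out peaks with shifted gene columns, chosen likewise, removed the HTR1B call in L (22 lymphoma-only). No paired analysis was possible because each group has 1 pooled list per fraction. The planned count of promoter CpGs was not run because no promoter sequence was used here. Depth is unknown, and the floor of 6 limits what an absent peak shows.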
